A study of Mus musculus with 79 samples.

Results

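The 10 genes described here are core members and outputs of the circadian clock: Arntl, Npas2, Cry1, Nr1d1, Nr1d2, Per1, Per2, Per3, Dbp and Tef. They were taken by symbol from 22335 genes measured with 35556 probesets on Affymetrix Mouse Gene 1.0 ST arrays, and each of the 10 had a single probeset. RNA came from the quadriceps of male mice of 42 inbred strains, namely 40 BXD strains, inbred lines whose founders were C57BL/6J and DBA/2J, and those 2 founders themselves. One group, of 42 arrays, was kept on a chow diet (CD, Harlan 2018). The other, of 37 arrays, was moved at 8 weeks of age to a high fat diet (HFD, Harlan 06414). All animals were killed at 29 weeks per the labels after a fast that lasted from 6 pm to 9 am, so every cohort was sampled after the same overnight fast, and the hour at which each cohort was killed is not given in the sources used here. Each array held the pooled RNA of about 5 animals of 1 strain on 1 diet, so animals of a strain cannot be told apart and a p-value measures the spread between strains.

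In mammalian cells ARNTL (also called BMAL1) pairs with CLOCK or its relative NPAS2 and switches on genes that carry E-box sequences, among them the Per and Cry genes, Nr1d1, Nr1d2, Dbp and Tef. PER and CRY proteins then repress the ARNTL complex, and the nuclear receptors NR1D1 and NR1D2 (REV-ERB alpha and beta) repress Arntl through ROR elements. DBP and TEF bind D-boxes and pass the rhythm on to further genes. In skeletal muscle, as in liver, the transcripts of Arntl and Npas2 are known to peak at about the opposite time of day from those of Nr1d1, Dbp and the Per genes, and Cry1 is known to peak late.

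Some members' own promoters hold these elements, and the stretches that hold one are shown because the results below turn on which members moved together. Windows from 250 bases before to 50 bases after each start were taken from RefSeq (GRCm38.p6) for 9 of the 10 genes; Per2 was not matched. The search covered both strands for the E-box CACGTG, which reads alike on both strands, and for the D-box as TTATGTAA. For the ROR element it used a sequence pattern that allows alternative bases at some positions. In the lines that follow, which run 5′ to 3′ on the gene's strand, the capitals mark the match.
Per3, chr4:151044791-151044895, minus strand: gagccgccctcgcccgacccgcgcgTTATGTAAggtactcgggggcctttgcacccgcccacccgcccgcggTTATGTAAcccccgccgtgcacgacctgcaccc
Per1, chr11:69098758-69098813, plus strand: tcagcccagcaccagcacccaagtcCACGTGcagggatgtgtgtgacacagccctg
Cry1, chr10:85185084-85185139, minus strand: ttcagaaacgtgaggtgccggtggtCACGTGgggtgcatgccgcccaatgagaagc
Tef, chr15:81802521-81802576, plus strand: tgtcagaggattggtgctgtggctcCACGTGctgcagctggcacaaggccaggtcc
Arntl, chr7:113207528-113207556, plus strand: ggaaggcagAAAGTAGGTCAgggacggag
The Per3 stretch held 2 D-boxes, the first beginning 205 bases before the start, and this D-box was found in 0.938% of all 32851 windows. The E-box began 166 bases before the start in Per1, 60 bases before it in Cry1 and 127 bases before it in Tef, whose second window also held an E-box, and 7.15% of all windows held one. The Arntl match to the ROR element began at base 27 counted from the start of its second window's transcript, and 0.384% of windows held such an element. Npas2, Nr1d1, Nr1d2 and Dbp had none of these letters in their windows, which says nothing about elements elsewhere in the genes. A match is a description of letters and not a measured binding site.

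Values are the deposited scores, which on each array centre on 8.0 units with an SD of 2.0 over its probesets. They behave as logarithms, but the base is not stated, so differences are given in score units and not as folds, and levels of different genes are not set against each other. The titles name 2 batches, which per the labels were extracted and put on arrays at separate times, so extraction and array run cannot be told apart: batch 1 held 18 arrays from CD and 17 from HFD, and batch 2 held 24 from CD and 20 from HFD. Muscle fibre markers were high on every array, with a list mean between 14.64 and 14.96. Adipocyte markers were higher in HFD, where 7 of 9 were called higher and 1 (Cfd) lower, and their list mean ran from 9.33 to 10.8 (median 9.83) in CD and from 9.49 to 11.21 (median 10.3) in HFD. In macrophage markers 3 of 5, and in endothelial markers 3 of 4, were also called higher in HFD, and 1 of 5 red blood cell markers and 1 of 6 muscle markers were. Over all probesets 18.9% were called higher and 19.3% lower, so the red blood cell and muscle counts lay near the share of the whole array. On 3 arrays (BXD66 on CD and BXD51 on CD and on HFD) Alb, the serum albumin gene of hepatocytes, stood at 11.59, 11.5 and 11.64 against a median of 7.0, and none of 3 hepatocyte markers was called between diets by limma (0 at an unadjusted p under 0.05). In bulk tissue, a different share of a cell type and a different amount of RNA per cell cannot be told apart.

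The first question was how each clock transcript differed between the diets. Of the 10 genes, Arntl alone was called, at a Benjamini-Hochberg adjusted p below 0.05 over all probesets in a limma fit with diet and batch as terms, and it was lower in HFD. No member was called higher by limma (1, Dbp, at an unadjusted p under 0.05). The background was large: 18.9% of all probesets were called higher and 19.3% lower in HFD, so 1 of 10 genes lower and 0 of 10 higher is not more than the array as a whole showed. The median difference of the 10 genes was -0.02 units, beside -0.0007 over all probesets.

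**Figure D1:**
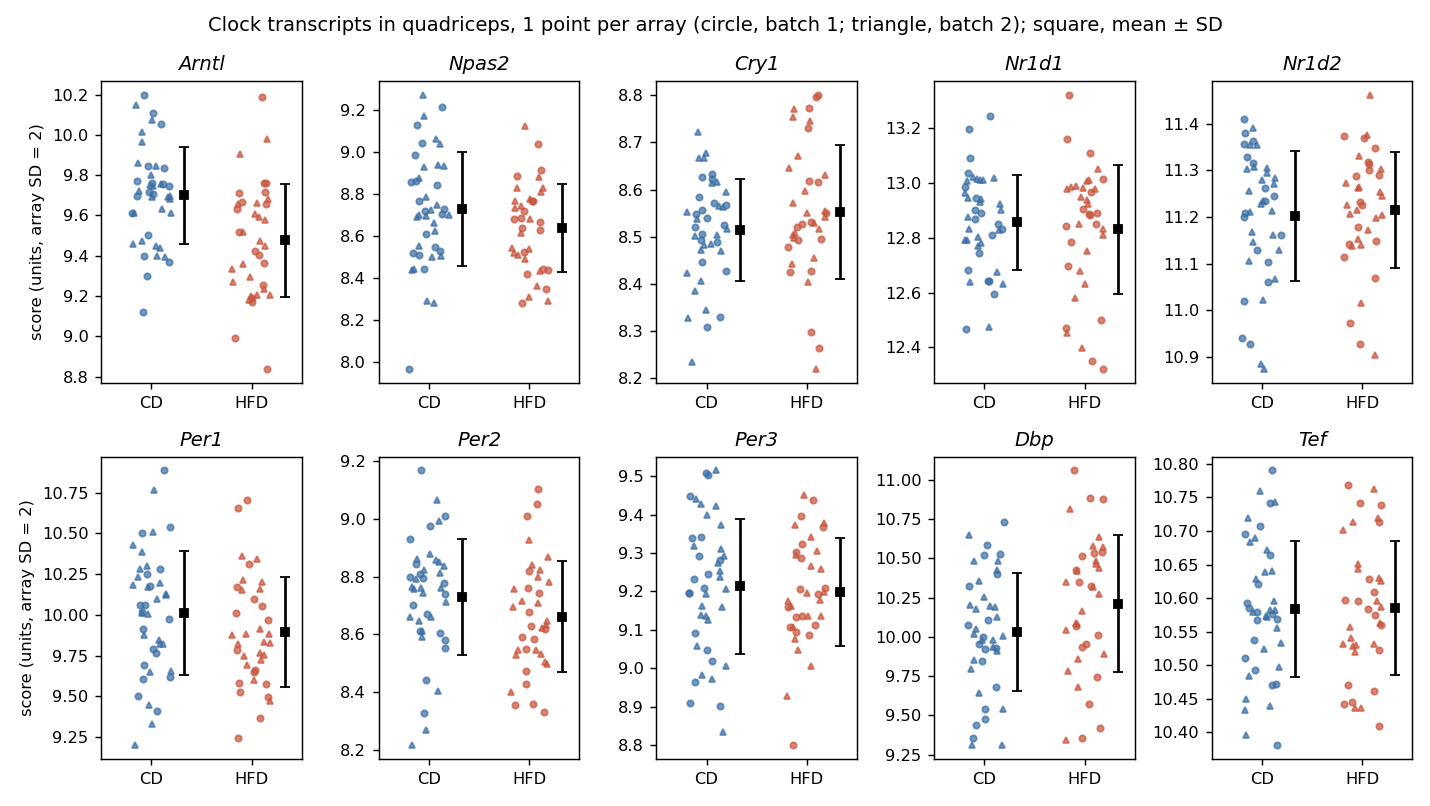
Score of each clock gene on each array, by diet, in score units on an axis of its own for each gene, with circles for batch 1, triangles for batch 2, and a square with bars for the mean ± SD of 42 CD and 37 HFD arrays. The diets overlap for every gene, and the Arntl mean sits at 9.70 in CD and 9.48 in HFD.

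Among the activators, Arntl scores ran from 9.12 through a median of 9.71 to 10.20 in CD, and from 8.84 through 9.48 to 10.19 in HFD. The groups overlapped: 2 HFD arrays lay below every CD array and 1 CD array above every HFD array. The mean was 9.70 ± 0.24 (SD, n = 42) on CD against 9.48 ± 0.28 (SD, n = 37) on HFD, and the fitted difference was -0.22 units (SE 0.0583, limma adjusted p = 0.00139). Within the batches the difference was -0.21 in batch 1 (limma adjusted p = 0.179) and -0.23 in batch 2 (limma adjusted p = 0.00708). With the mean of the adipocyte markers as a covariate it was -0.25 (limma adjusted p = 0.00246). Most of those markers were themselves called higher in HFD, and whether the share of fat cells plays a part was not tested. Npas2, the partner of ARNTL that can stand in for CLOCK, ran from 7.97 through 8.71 to 9.27 in CD and from 8.28 through 8.67 to 9.12 in HFD. Its lowest CD array, BXD95, was the lone array below the HFD range. Npas2 averaged 8.73 ± 0.27 and 8.64 ± 0.21, and the difference of -0.09 (SE 0.0546, limma adjusted p = 0.201) did not pass.

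Among the repressors, none passed the test between diets. Nr1d1 averaged 12.86 ± 0.17 in CD and 12.83 ± 0.23 in HFD, with a difference of -0.03 (95% interval -0.12 to 0.06). Its HFD arrays reached further down, to 12.32 against 12.47 in CD, and 4 HFD arrays lay below every CD array. Nr1d2 averaged 11.20 ± 0.14 and 11.21 ± 0.12, and its difference of 0.01 had an interval from -0.05 to 0.07. Cry1, which encodes a cryptochrome that blocks the ARNTL complex, averaged 8.51 ± 0.11 and 8.55 ± 0.14, and 7 HFD arrays lay above the highest CD array of 8.72, although the difference of 0.04 (limma adjusted p = 0.309) did not pass.

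The 3 Period genes, whose proteins act with the cryptochromes, had differences of -0.12 for Per1 (95% interval -0.28 to 0.04), -0.07 for Per2 (-0.16 to 0.02) and -0.01 for Per3 (-0.09 to 0.06). Per1 spread most of the 3, from 9.20 through 10.04 to 10.89 in CD and from 9.24 through 9.83 to 10.71 in HFD, with strain BXD44 highest on either diet. Per2 ran from 8.22 to 9.17 in CD and from 8.33 to 9.10 in HFD. Per3 ran from 8.83 to 9.51 in CD and from 8.80 to 9.45 in HFD, and the sign of its difference turned with each array centred on its median and with the adipocyte covariate.

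Of the output factors, Dbp ran from 9.31 through 10.01 to 10.73 in CD and from 9.35 through 10.32 to 11.06 in HFD. The 4 highest HFD arrays exceeded every CD array. Dbp averaged 10.03 ± 0.38 in CD and 10.21 ± 0.43 in HFD, and the difference of 0.18 (SE 0.0902, 95% interval 0.002 to 0.36, limma adjusted p = 0.103) did not pass. Tef, a close relative of Dbp, averaged 10.58 ± 0.10 and 10.59 ± 0.10, a difference of 0.002 (95% interval -0.05 to 0.05) whose sign turned after a further quantile normalization and in batch 1 alone. Its range of 0.41 units in CD and 0.36 in HFD was the narrowest of the 10 genes.

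The labels name the strain of each array, so the diets could also be compared within the 37 strains that had an array on each. With strain as a block in the fit, 3 members were called instead of 1: Arntl with a difference of -0.24 (limma adjusted p = 1.5e-05), Npas2 with -0.11 (limma adjusted p = 0.0395) and Dbp with 0.19 (limma adjusted p = 0.00374). Under that block 20.7% of all probesets were called higher and 20% lower. Arntl was lower in HFD in 31 of the 37 strains, Npas2 in 24, and Dbp was higher in 26.

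The strain differences varied widely around these means. For Arntl the difference ran from -0.91 in BXD70 through a median of -0.28 to 0.28 in BXD98, and the strain next to BXD70 stood at -0.53. For Dbp it ran from -0.67 in BXD79 through 0.22 to 0.84 in BXD89, with BXD70 second highest at 0.78. Per1 had the widest spread of differences of the 10, from -1.04 in BXD96 to 0.87 in BXD90, and was higher in HFD in 17 strains and lower in 20.

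Arntl was lower and Dbp higher in HFD in 23 strains, and the reverse held in 3, BXD79, BXD83 and BXD96. Both were lower in 8 strains and both higher in 3. The most frequent agreement in direction was between Per2 and Per3, which moved the same way in 31 of 37 strains, followed by Nr1d2 and Dbp in 30. In the parental strains, Arntl differed by -0.47 in DBA/2J and by -0.11 in C57BL/6J, and Dbp by 0.53 and 0.14, each from 1 array per diet and therefore without a test.

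**Figure D2:**
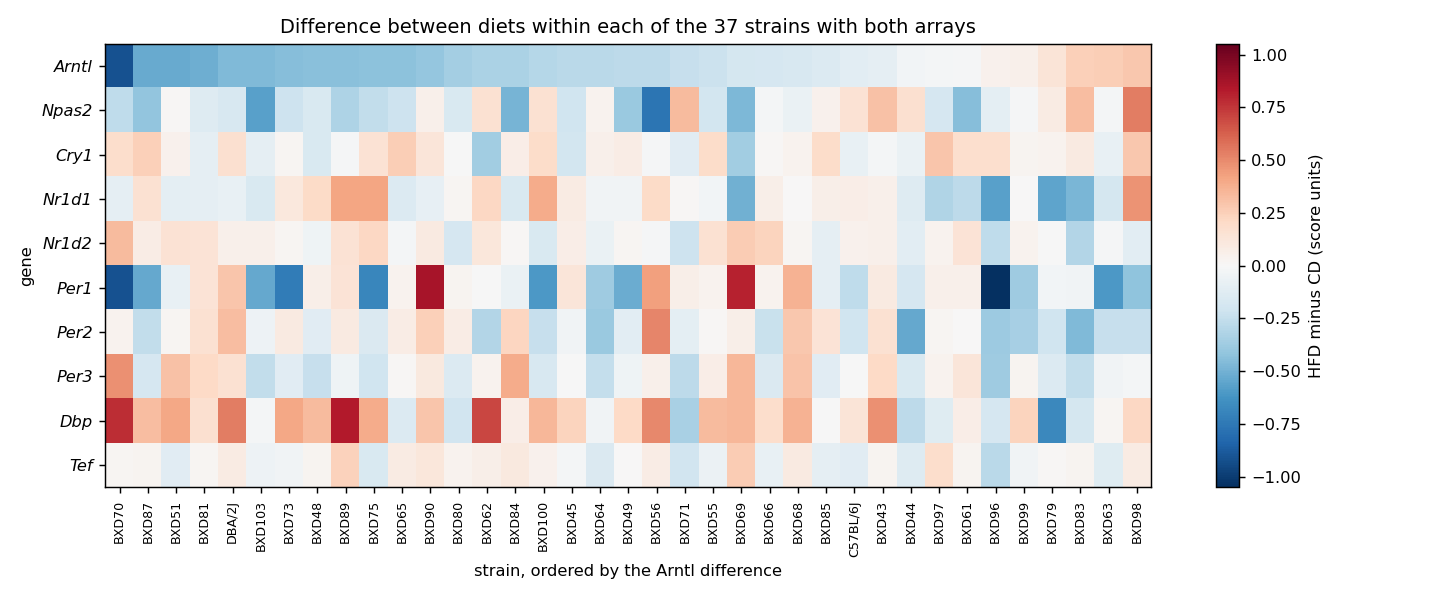
Difference in score between HFD and CD for each clock gene (rows) in each of the 37 strains with an array on each diet (columns, ordered by the Arntl difference), with red for higher and blue for lower in HFD. Arntl is lower in 31 strains and Dbp higher in 26, while Per1 holds the deepest differences in either direction.

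Other genes tied to the clock were counted from 3 lists. Of 16 further clock genes, 2 were called higher in HFD and 0 lower by limma (0 lower at an unadjusted p under 0.05), a share below the 18.9% of all probesets called higher. Among them was Rorb by 0.12 (limma adjusted p = 0.00297), which encodes a nuclear receptor that binds the ROR element. The Rorb probeset was dim, with a mean score of 7.42, below the lowest array median of 7.78. Clock itself, the main partner of ARNTL, averaged 10.42 in CD and 10.48 in HFD and was not called (limma adjusted p = 0.0694). Of 6 transcripts known to follow the clock in many tissues, Wee1 (0.10, limma adjusted p = 0.032), which encodes a cell cycle kinase, and Por (0.14, limma adjusted p = 0.00256), which encodes the electron donor of cytochrome P450 enzymes, were called higher. Tsc22d3, a transcript also induced by glucocorticoids, was called lower, with a difference of -0.21 (limma adjusted p = 0.000293). Of 6 glucocorticoid-induced genes none was called by limma, with 1 of them (Zbtb16) at an unadjusted p of 0.0241. With the adipocyte markers as a covariate Rorb, Wee1 and Por were no longer called (limma adjusted p = 0.0509, 0.142 and 0.328).

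The next question was how the clock transcripts varied together from strain to strain within a diet. Arntl and Npas2 lay at one end and Dbp, Nr1d2, Per2 and Per3 at the other, on either diet. Strains with high Arntl had low Dbp: in BXD61 Arntl stood at 10.20 and Dbp at 9.35 on CD, and at 10.19 and 9.42 on HFD. DBA/2J lay toward the other end of each gene's range, with Arntl at 9.30 and Dbp at 10.53 on CD, and with the lowest Arntl (8.84) and the highest Dbp (11.06) of all HFD arrays. C57BL/6J lay between them, with Arntl at 9.77 and Dbp at 9.93 on CD and at 9.66 and 10.07 on HFD.

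**Figure D3:**
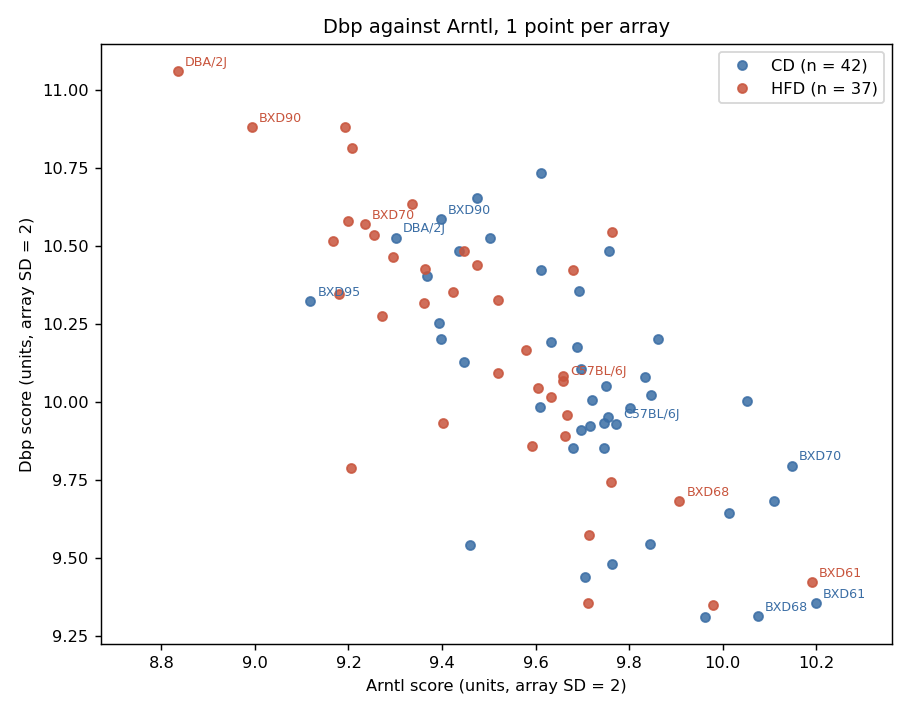
Dbp score against Arntl score, 1 point per array, blue for CD (n = 42) and red for HFD (n = 37), with some strains labelled. Points fall from upper left to lower right on either diet (r = -0.648 in CD and -0.794 in HFD).

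All 45 pairs of the 10 genes were correlated within each diet, with permutation tests of 100000 draws for which 1e-05 is the smallest possible p, and with p-values adjusted over all probesets by a limma fit on each gene in turn. Dbp against Arntl gave r = -0.648 in CD (rho = -0.663, permutation p = 1e-05, limma adjusted p = 0.0166 with Dbp as the predictor) and r = -0.794 in HFD (rho = -0.733, permutation p = 1e-05, limma adjusted p = 6.03e-05). Without the 2 arrays farthest from the median Arntl score it was -0.62 in CD and -0.736 in HFD. Within batches 1 and 2 it was -0.709 and -0.578 in CD, and -0.841 and -0.719 in HFD. No gene's values fell into separate clusters of arrays.

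Dbp served as a first yardstick. In CD, 12 of 35555 other probesets (0.0338%) were called with Dbp, and 3 of the 9 other members were among them: Nr1d2 (r = 0.682) and Per3 (r = 0.636) rose with Dbp and Arntl fell. In HFD, 444 probesets (1.25%) were called, and 6 of the 9 were among them. That background moved with the processing, to 23 up and 67 down without the 2 arrays farthest from the median Dbp score and 229 up and 461 down after a further quantile normalization. Nr1d1 (r = 0.745), Nr1d2 (r = 0.775), Per2 (r = 0.711) and Per3 (r = 0.727) rose with Dbp, and Arntl and Npas2 (r = -0.645) fell. Without the 2 arrays farthest from the median Dbp score, Per3 in CD (limma adjusted p = 0.0706) and Npas2 in HFD (limma adjusted p = 0.0631) were no longer called. Cry1, Per1 and Tef were not called with Dbp on either diet, with r between -0.087 and 0.391.

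Arntl served as the other yardstick. In CD, 17 probesets (0.0478%) were called, among them Npas2 (r = 0.64), which rose with Arntl, and Nr1d2 (r = -0.698) and Dbp, which fell. The call of Npas2 in CD was lost without BXD95, the array with the lowest Arntl and the lowest Npas2 (limma adjusted p = 0.0877), and without the 2 arrays farthest from the median Arntl score (limma adjusted p = 0.239). In HFD, 2085 probesets (5.86%) were called, among them Npas2 (r = 0.604), Nr1d1 (r = -0.582), Nr1d2 (r = -0.619), Per2 (r = -0.758), Per3 (r = -0.536) and Dbp. Without the 2 farthest arrays Nr1d1 (limma adjusted p = 0.0506) and Per3 (limma adjusted p = 0.0632) were no longer called in HFD, and after a further quantile normalization neither were Npas2 (limma adjusted p = 0.0545) and Nr1d1 (limma adjusted p = 0.0632). The number of probesets called with Arntl in HFD also moved, to 51 up and 26 down after a further quantile normalization, and 251 up and 217 down without the 2 arrays farthest from the median Arntl score. Within single batches, which hold fewer arrays, 0 members were called with either gene in CD and in batch 1 of HFD, and 3 with Dbp and 2 with Arntl in batch 2 of HFD, while the r of each member called over all arrays kept its sign in either batch. In batch 2 of HFD 1.85% of all probesets were called with Dbp and 9.55% with Arntl. The shares for Dbp and Arntl were 0.0% and 0.00563% in batch 1 of CD, 0.0169% and 0.0% in batch 2 of CD, and 0.00844% and 0.00281% in batch 1 of HFD.

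**Figure D4:**
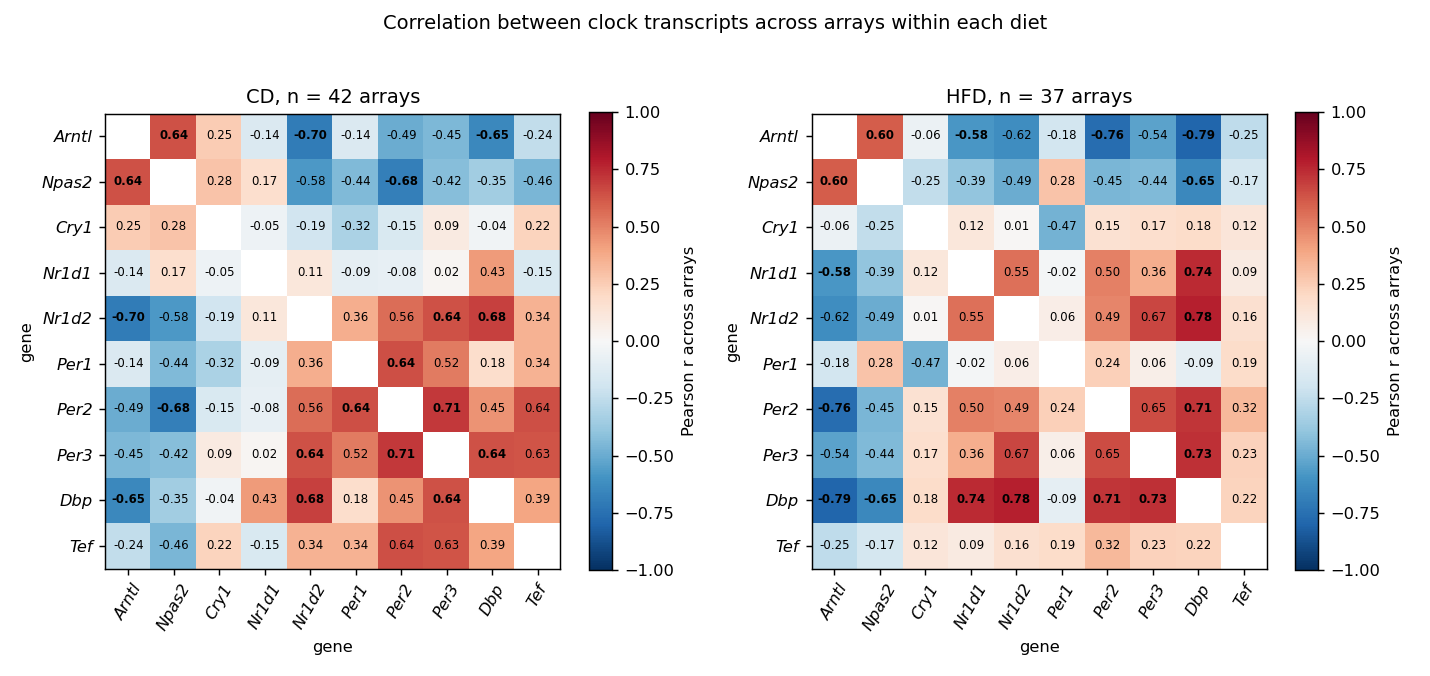
Pearson r between each pair of clock genes across arrays, in CD (left, n = 42) and HFD (right, n = 37), on a colour scale from -1 (blue) to 1 (red), with bold type where the pair was called by limma in both fits, with each of its genes in turn as the predictor. Arntl and Npas2 run against Dbp, Nr1d2, Per2 and Per3 on each diet, and Cry1 and Tef have no pair in bold.

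Counting a pair only where it was called in both fits, with each of its genes in turn as the predictor, 9 of 45 pairs were called in CD and 9 in HFD, and 4 were called on both diets: Arntl with Npas2, Arntl with Dbp, Nr1d2 with Dbp, and Per3 with Dbp. The share of all probesets called differed widely with the predictor. Besides the shares given for Dbp and Arntl, it was 0.304% for Npas2, 0.00844% for Cry1, 0.622% for Nr1d1, 0.0281% for Nr1d2, 0.0225% for Per3 and 0.0338% for Tef in CD. In HFD it was 12.3% for Npas2, 0.0675% for Cry1, 5.72% for Nr1d1, 0.0169% for Nr1d2, 0.00844% for Per3 and 0.0% for Tef. The sign of r was the same on both diets in 34 of the 45 pairs. At an unadjusted permutation p below 0.05 there were 27 pairs in CD and 22 in HFD. The first principal component of the 10 standardized genes held 45.8% of their variance in CD and 47.3% in HFD, with Arntl and Npas2 loading against Dbp, Nr1d2, Per2 and Per3.

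Of the Period genes, Per2 and Per3 correlated at r = 0.709 in CD (permutation p = 1e-05) and 0.651 in HFD (permutation p = 3e-05). Per1 correlated with Per2 in CD (r = 0.641, permutation p = 1e-05, limma adjusted p = 0.0134 with Per2 as the predictor) and had r = 0.241 in HFD (permutation p = 0.15). Per1 and Per3 gave r = 0.519 in CD (permutation p = 0.00039) and 0.062 in HFD (permutation p = 0.717). The slope of Per1 on Per2 was 1.22 in CD and 0.42 in HFD, a difference of -0.80 (95% interval -1.52 to -0.08) that did not pass over all probesets (limma adjusted p = 0.416).

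Fits on Per1 and on Per2, chosen after the data were seen, gave the other genes that went with them. With Per1, 0.925% of probesets were called in CD and 0.759% in HFD. In CD Per2 was the called member, and of the other lists Ciart, Usp2 and Mt1 rose with Per1 and Clock fell. In HFD no member was called with Per1 by limma (1 of 9, Cry1, had an unadjusted p under 0.05, at 0.00433), while Klf9 (r = 0.566), Cdkn1a (r = 0.601) and the metallothioneins Mt1 (r = 0.66) and Mt2 (r = 0.62) rose with it, 3 of these 4 from the list of 6 glucocorticoid-induced genes. With Per2, 0.0281% of probesets were called in CD, among them Per1, Per3 and Npas2, and 0.0675% in HFD, among them Per3, Dbp and Arntl. Ciart and Usp2 were called with Per2 on both diets.

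Nr1d1 and Nr1d2 share the task of repressing Arntl. In CD Nr1d1 had r = 0.429 with Dbp and -0.143 with Arntl, neither called, and r = 0.113 with Nr1d2. In HFD the values were 0.745, -0.582 and 0.55. The 2 arrays farthest from a median were then left out, by the Nr1d1 score for the pairs with Dbp and Nr1d2 and by the Arntl score for the pair with Arntl. The values were 0.583, -0.302 and 0.289 in CD and 0.702, -0.538 and 0.39 in HFD, so the diets lay closer together. The slope of Nr1d1 was 0.20 on Dbp in CD and 0.40 in HFD, a difference of 0.20 (95% interval 0.03 to 0.38, unadjusted p = 0.0259) that did not pass over all probesets (limma adjusted p = 0.302). On Arntl the slopes differed by -0.38 (95% interval -0.70 to -0.06, unadjusted p = 0.0208, limma adjusted p = 0.882). No member's slope on Dbp or on Arntl was called as different between the diets by limma, and Nr1d1 was the only one with an unadjusted p below 0.05 on either. Over all probesets 0.00563% were called for Dbp and 0.0% for Arntl.

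Among the other clock genes, Ciart (listed as Gm129; a repressor of the ARNTL complex) and Bhlhe40 (a repressor that binds E-boxes) rose with Dbp on both diets, with r = 0.766 and 0.68 in CD and 0.756 and 0.778 in HFD. Nfil3, a repressor that binds the same D-box as DBP, fell with Dbp on both diets (r = -0.626 and -0.748) and rose with Arntl (r = 0.674 and 0.785). Usp2, which encodes a deubiquitinating enzyme and follows the clock in many tissues, rose with Dbp and fell with Arntl on both diets. Hlf, another relative of Dbp and Tef, was called with Dbp in HFD alone (r = 0.599), although its slope differed between the diets by only -0.01 (95% interval -0.16 to 0.15, limma adjusted p = 0.977). In all, 3 of 16 other clock genes were called with Dbp in CD and 5 in HFD, and with Arntl 1 in CD and 6 in HFD. Of all probesets, 0.0338% were called with Dbp in CD and 1.25% in HFD, and with Arntl 0.0478% in CD and 5.86% in HFD. Of the 6 glucocorticoid-induced genes none was called by limma in CD with Dbp (3 lower at an unadjusted p under 0.05) or with Arntl (3 higher), and in HFD Fkbp5 (r = -0.755), Zbtb16 (r = -0.549) and Cdkn1a (r = -0.637) fell with Dbp, and Fkbp5 rose with Arntl (r = 0.56). None of the 32 adipocyte, macrophage, endothelial, red blood cell, muscle and hepatocyte markers was called by limma with Dbp or with Arntl on either diet. At an unadjusted p under 0.05 there were 0 with Dbp and 2 with Arntl in CD, and 2 and 3 in HFD. With so small a share of all probesets called in CD, the absence of a called marker there says little.

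A search of all 22325 other symbols for the closest patterns over all 79 arrays, after the mean of each diet and batch was removed, gave the following genes. For Dbp the highest r belonged to Ciart (0.756), Bhlhe40 (0.724), Tob1 (0.654), Ky (0.606) and Jarid2 (0.602), and the lowest to A630005I04Rik (-0.695), Nfil3 (-0.678), Fkbp5 (-0.667), Arrdc3 (-0.653) and Cyr61 (-0.644). For Arntl the highest belonged to Slc16a9 (0.783), A630005I04Rik (0.741), Nfil3 (0.72), Wsb1 (0.706) and Orc2l (0.628), and the lowest to Usp2 (-0.65), Ciart (-0.594), Trpv6 (-0.557), Ccdc110 (-0.557) and Micall2 (-0.533). The row of A630005I04Rik lies between those of Arntl and Far1 in the deposited table, whose order follows the chromosome near Arntl, so whether its probes read a transcript of the Arntl region was not tested. Trpv6, Ccdc110 and Micall2 were dim, with mean scores of 7.39, 7.35 and 7.32, below the lowest array median of 7.78. These correlations are descriptive.

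The strain differences also went together. The HFD minus CD difference of Dbp correlated with that of Arntl at r = -0.525 (rho = -0.47, permutation p = 0.0008, n = 37, limma adjusted p = 0.0359 with Arntl as the predictor and 0.344 with Dbp). It was -0.432 and -0.527 in strains with both arrays in batch 1 or batch 2, and -0.501 without the 2 strains farthest from the median Arntl difference. Nr1d2 and Dbp gave r = 0.598, Nr1d2 and Per3 0.608, and Per2 and Per3 0.59. Of the 45 pairs of differences, 0 were called by limma in both fits, with each gene in turn as the predictor, Arntl with Dbp and Nr1d1 with Dbp (r = 0.568) were called in 1 of the 2 fits, and 19 had an unadjusted permutation p below 0.05. Over all probesets, 5.93% were called with the Arntl difference, 2.05% with that of Nr1d1 and 0.0% with that of Dbp.

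The last question was whether a strain kept its level from one diet to the other. Over the 37 paired strains, with the mean of each batch removed within each diet, the level on CD went with the level on HFD most closely for Dbp, at r = 0.70 (rho = 0.723, permutation p = 1e-05, n = 37, adjusted p = 7.13e-05 over all probesets). Arntl followed at r = 0.51 (rho = 0.399, permutation p = 0.00109, adjusted p = 0.0174). Those were the 2 of 10 members called, against 10.5% of all probesets called with an r above 0, and Dbp stood at percentile 98.0 and Arntl at percentile 92.7 of all probesets. Nr1d2 followed at r = 0.42 (permutation p = 0.00936, adjusted p = 0.0758), and was called when dim probesets were left out of the adjustment (adjusted p = 0.0451).

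For the other 7 members r lay between 0.157 (Per3) and 0.294 (Per1), and the value of Per1 was 0.055 without the 2 strains farthest from its median. The values of these 7 are neighbours that the number of strains does not separate. For Dbp the r was 0.833 among the 12 strains run wholly in batch 1, 0.547 among the 17 run wholly in batch 2 and 0.779 in the 8 with arrays in different batches, and it was 0.72 without the 2 farthest strains. For Arntl these were 0.727, 0.285 and 0.434, and 0.512. Its rank correlation did not pass over all probesets (adjusted p = 0.107).

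**Figure D5:**
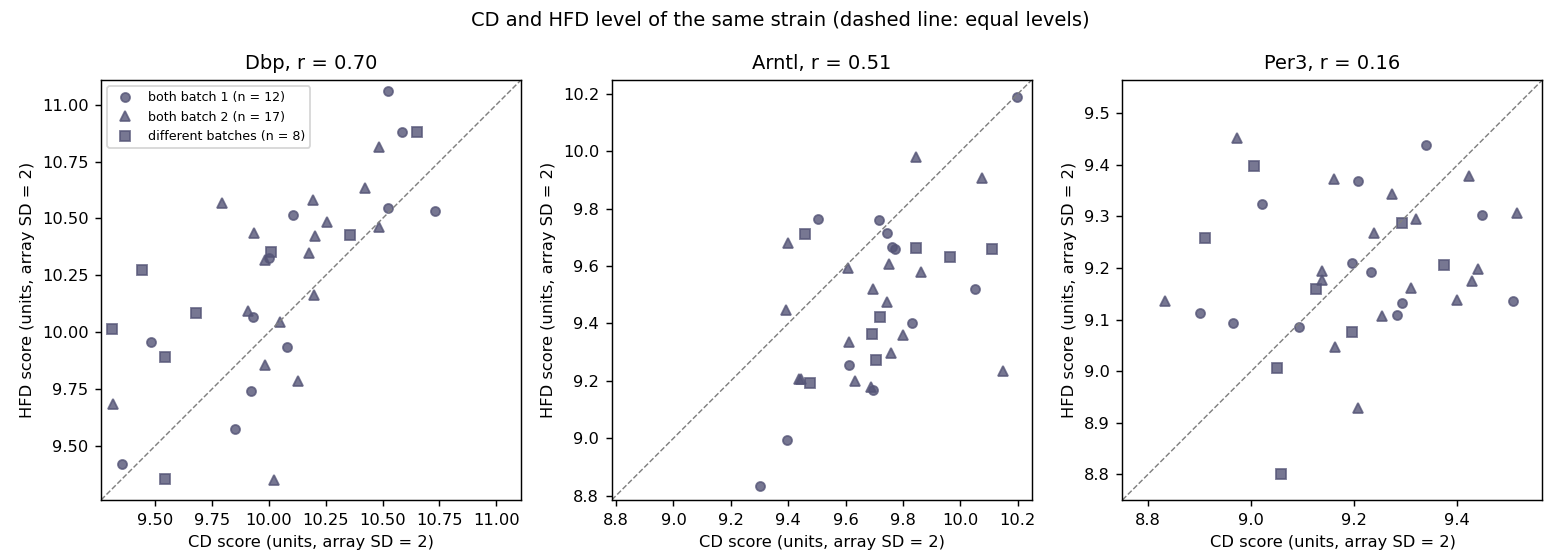
Score on HFD against score on CD for Dbp, Arntl and Per3, 1 point per strain, with symbols for the batches of its arrays and a dashed line where the levels are equal. The r in each title was taken after batch means were removed (0.70, 0.51 and 0.16), and most Arntl points fall below the line while most Dbp points lie above it.

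Single strains show this. Of the 6 strains lowest in Dbp on each diet, 3 were shared (BXD61, BXD68 and BXD83), and of the 6 highest, 4 were shared (BXD45, BXD55, BXD90 and DBA/2J). BXD68 had Dbp at 9.31 on CD and 9.68 on HFD, and BXD45 had 10.65 and 10.88. For Arntl, BXD90 and DBA/2J were among the lowest 6 on each diet, with 9.40 and 8.99 in BXD90, and BXD61 and BXD68 among the highest, with 10.08 and 9.91 in BXD68. No strain lay at opposite ends on the 2 diets for Dbp or Arntl.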

How the data were processed

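Pooled quadriceps RNA was hybridized to 79 Affymetrix arrays, and Affymetrix Expression Console is named in the submitters' processing notes. The deposited values are a score per probeset with a mean of 8.0 and an SD of 2.0 on each array as found here; log base, summarization, genome build and any batch correction are not given in the sources used here. A batch term called 0 of 35556 probesets (limma, smallest unadjusted p = 0.266, 0 below 0.05). Chance alone would leave some p-values below 0.05, so the batch means of the deposited scores were more alike than chance would make them. Whether they had been equalized before deposit was not tested. The batch term therefore adjusted for little: the diet difference of Arntl was -0.223 with it and -0.2229 without it. The score was tested with the linear models planned for log2 data. The chow column BXD92 was matched to the sample with the title BXD92a. All value columns were used. Precision is limited by the number of arrays, which have no read depth.

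limma 3.58.1 in R 4.3.3 fitted the score on diet and batch, or, within a diet, every other probeset on 1 clock gene and batch, over all probesets with Benjamini-Hochberg adjustment and calls below 0.05. Correlations and permutation tests used Python 3.11.15, numpy 2.4.6, pandas 2.3.3 and scipy 1.17.1 (scikit-learn 1.9.0 for the search for clusters, matplotlib 3.10.9 for plots). The pooled p of a cross-diet r was adjusted from Pearson's test over all probesets. A split into clusters needed a gain in BIC of 10 or more for 2 normal components over 1, with an Ashman's D above 2. Pairing comes from the strain labels: deviations of the same strain on the 2 diets correlated at a median of 0.214 (range -0.136 to 0.395; 33 of 37 above 0.1), against -0.006 for other strains. Tested on simulated data, the diet fit over 35556 probesets recovered 77 of 100 shifts of 1.0 residual SD and 99 of 100 of 1.5, with 5 false calls.

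The members and lists (16 other clock genes, 6 outputs, 6 glucocorticoid-induced genes, the cell markers) were chosen with earlier results of these data known. All 10 members are named, and the list genes where called, except that 2 list genes count in the totals and their own values are not reported here; Clock, Zbtb16 and the strains named were picked with their values in view. The 5 nearest genes at each end were named for Dbp and Arntl. Alternatives covered batch, strain block, the methods' t-test, a robust prior, scaling, dim probesets, an adipocyte covariate and the arrays included; those without BXD51 and BXD66 or without BXD95, and the fits on Per1, on Per2 and on strain differences, were chosen after seeing the data.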

Additional observations from a re-analysis of the deposited data

How the results depend on the processing

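Numbers of clock genes called moved as follows. In the diet comparison 1 was called higher and 2 lower with strain as a replicate block, and 0 lower in batch 1 alone. With Dbp, 0 were called in CD in batch 1 alone and 0 in batch 2 alone, and in HFD 0 and 3; with Arntl, 0 and 0 in CD, and 0 and 2 in HFD. For the CD to HFD correlation, 1 was called in strains with both arrays in batch 1, 0 with both in batch 2, 0 with arrays in different batches, and 1 by Spearman's rho. Those subsets hold fewer arrays or strains. The other 73 counts stayed within 1.5 times of the main one, among them all 12 slope-difference counts with or without the strain block, and the block changed no other call of a member than those of Npas2 and Dbp. Directions turned for these values, none of them called: the diet difference of Per3 (0.0030 median centred, 0.0023 with the adipocyte covariate) and of Tef (-0.0063 in batch 1 alone, -0.015 quantile normalized again); the slope of Cry1 on Dbp in CD (0.067 in batch 2 alone, 0.0084 without the parental strains, 0.0099 without the 2 farthest arrays) and in HFD (-0.0061 in batch 1 alone); of Per1 on Dbp in HFD (0.074 in batch 1 alone); of Nr1d1 (0.049 in batch 2 alone) and Per1 (0.0046 in batch 1 alone) on Arntl in CD; of Cry1 (0.043 in batch 1 alone) and Per1 (0.19 in batch 2 alone) on Arntl in HFD; and the CD to HFD r of Nr1d1 (-0.074, both arrays in batch 2) and, with arrays in different batches, of Cry1 (-0.115), Per1 (-0.176) and Per2 (-0.117). The cause was not tested. Centring on the median moved the diet calls over all probesets from 6703 higher and 6848 lower to 8199 and 5758, and Arntl stayed called (-0.21, limma adjusted p = 0.00485); over 14 alternatives its difference ran from -0.25 to -0.21 and its adjusted p from 1.5e-05 to 0.179. Each member has 1 probeset, so other probesets gave no value. Signal over background is not in the table, which limits what can be said of weak probesets.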
